A study of Homo sapiens with 2 samples.

Results

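The 38 genes described here encode the enzymes that build triglyceride, the proteins that coat and shape the lipid droplet, and the lipases that empty it. They were taken by name from a list of glycerolipid acyltransferases, lipins, droplet coat proteins and lipases, and all 38 were matched among the 60623 gene entries of the deposited tables. The cells were HepG2, a hepatocellular carcinoma line of human origin labelled as wild type, and their RNA was sequenced in 2 groups of 1 library each. Cells of both groups received 1 mM free fatty acid (FFA, a mixture of oleic and palmitic acid bound to albumin) for 24 h, and 1 group was also given the retinoid 9-cis-RA, the 9-cis isomer of retinoic acid and a ligand of the RXR and RAR nuclear receptors, at 10 μM for 24 h. The question the design put to these genes was how the agonist altered transcripts of steatotic cells. A library without FFA was not analysed here, so the values compare a fatty-acid-loaded culture with a fatty-acid-loaded culture given 9-cis-RA.

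Triglyceride is assembled mainly on the endoplasmic reticulum by successive acylation. Glycerol-3-phosphate acyltransferases (GPATs) add the first fatty acid, acylglycerol-phosphate acyltransferases (AGPATs) add the next and give phosphatidic acid, lipins remove the phosphate, and diacylglycerol acyltransferases (DGATs) add the last fatty acid. The product is stored in droplets covered by perilipins (PLINs), and droplets fuse and grow with the help of CIDE proteins. Adipose triglyceride lipase, encoded by PNPLA2, starts hydrolysis in the cytosol, hormone-sensitive lipase and monoacylglycerol lipase continue it, and lysosomal acid lipase works on droplets delivered to lysosomes. Hepatocytes use the same machinery to hold fatty acids in store, to burn them and to supply lipid for lipoprotein secretion.

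The FFA library held 60821539 counts and the FFA + 9-cis-RA library 57669670, and the 38 genes took 0.276% and 0.253% of them. With 1 library per group there was no replicate check and no test, so each log2 fold change, FFA + 9-cis-RA against FFA on counts divided by DESeq2 size factors with a pseudocount of 1, carries an exact 95% interval, given beside it, that covers counting error only. The retinoid response genes CYP26A1 (4 and 709 counts, log2 fold change 7.17), RARB (6 and 46 counts) and DHRS3 (1126 and 1999 counts) were each higher where the label names 9-cis-RA. All 16 hepatocyte markers examined were counted, and 11 of them had intervals below 0, as 25.7% of all genes did, among them APOH (log2 fold change -1.07), AFP (-0.99) and AHSG (-0.89). The other 5 markers had intervals above 0, against 22.5% of all genes and 30.9% of those 13306. FGG was at 1.14, FGB at 0.84, and APOB, APOA1 and SERPINA1 between 0.036 and 0.050. The summed level of the 16 markers was 6564 FPKM (fragments counted per kilobase of exon, scaled to the library total) in the FFA library and 5385 with 9-cis-RA added, and the part of this in the values below was not tested. Of 10 adipocyte markers, FABP4, LPL and RETN had 0 counts in both libraries and ADIPOQ had 1 and 0. PPARG, of the same list, had 1019 and 712 counts, CIDEC 936 and 898, and CFD 294 and 212. Of 10 macrophage markers, PTPRC, C1QA and C1QB had 0 counts in both, and no macrophage marker exceeded 34 counts. The stellate cell markers LRAT and DCN and the endothelial markers KDR, TEK and CLEC4G were also at 0 in both, while ACTA2, of the stellate list, had 1186 and 773 counts and LYVE1, of the endothelial list, 609 and 223. The summed levels were 15.9 and 13.99 FPKM for the adipocyte list, which holds PLIN1, CIDEC and LIPE, 0.527 and 0.581 for macrophages, 6.93 and 4.84 for stellate cells and 3.31 and 1.396 for endothelium, and their part in the results was not tested.

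The bases just before the RefSeq start of each perilipin gene are shown. They were chosen because 4 of the 5 genes had intervals below 0, as had 25.7% of all genes. Part of the same region of PNPLA2 is shown because it was the gene whose whole interval lay above 0.5 on the log2 scale. All are RefSeq promoter sequences of GRCh38.p14, read in the direction of the gene, with base -1 next to the RefSeq start. That start can differ from the first base of the counted gene. PLIN2 was counted from base 19149290 downward, so its whole stretch lies inside the counted gene. The stretches of PLIN1 and PLIN3 lie partly inside theirs. Capitals mark, on either strand, the E-box letters CACGTG, the TATA box letters TATAAA or the CCAAT box. They also mark AGGTCA, the core letters that RXR and its partner receptors bind, and the sterol response element letters TCACNCCAC. No motif was found in the stretch of PLIN1. PLIN1 (chr15:89679368-89679467, minus strand), PLIN2 (chr9:19127493-19127592, minus strand), PLIN3 (chr19:4867668-4867767, minus strand), PLIN4 (chr19:4518487-4518586, minus strand) and PLIN5 (chr19:4535225-4535324, minus strand) are given from base -100 to -1, and PNPLA2 (chr11:818664-818773, plus strand) from -250 to -141.
PLIN1: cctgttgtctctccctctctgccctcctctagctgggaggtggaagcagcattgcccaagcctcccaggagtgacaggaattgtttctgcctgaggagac
PLIN2: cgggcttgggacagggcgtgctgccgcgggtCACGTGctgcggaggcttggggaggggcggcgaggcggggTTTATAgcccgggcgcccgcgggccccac
PLIN3: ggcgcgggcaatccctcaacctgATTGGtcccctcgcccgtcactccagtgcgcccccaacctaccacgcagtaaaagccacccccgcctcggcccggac
PLIN4: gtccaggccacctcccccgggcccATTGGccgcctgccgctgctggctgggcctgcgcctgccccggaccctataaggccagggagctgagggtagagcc
PLIN5: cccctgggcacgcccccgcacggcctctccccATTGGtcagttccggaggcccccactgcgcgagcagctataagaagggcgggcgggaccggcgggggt
PNPLA2: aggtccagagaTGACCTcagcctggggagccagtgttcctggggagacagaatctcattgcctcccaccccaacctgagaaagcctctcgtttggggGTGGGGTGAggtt

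PLIN3, PLIN4 and PLIN5 each carried the CCAAT letters on the opposite strand, starting 77, 76 and 68 bases before the start. PLIN2 carried no CCAAT in its window and had an E-box starting 69 bases before the start and TATAAA, on the opposite strand, starting 29 bases before it. CCAAT was present in 34.6% of all 35116 promoter windows, CACGTG in 7.26% and TATAAA in 11.5%. PNPLA2 held the AGGTCA letters, starting 239 bases before the start (13.8% of all windows), and the TCACNCCAC letters, starting 153 bases before it (1.13% of all windows). Of the 38 genes, 29 had at least 1 window, 49 windows in all, and none of these held a pair of AGGTCA runs in the same direction spaced by 1 or by 4 bases, which 0.0228% and 0.0199% of all windows held. Among these 29 genes, AGGTCA was also in AGPAT1 (log2 fold change -0.15) and TCACNCCAC also in CIDEC (-0.032, interval including 0). CACGTG was also in LPIN2 (0.17) and HSD17B13 (0.87, interval including 0). TATAAA was in 5 of the genes. CCAAT was in 14, among them AGPAT3 (0.19) and MOGAT1 (0.70), which were higher with 9-cis-RA. These matches are descriptions of the letters near the annotated starts and not binding sites.

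Among the genes with enough counts to compare, those that differed most between the libraries were lower with 9-cis-RA. In bulk RNA of a culture, fewer cells carrying a transcript and less transcript per cell cannot be told apart. Of the 35 genes whose counts in both libraries summed to 10 or more, 22 had a log2 fold change within 0.5 of 0. The median was -0.15, against -0.020 over all 20431 genes compared. The lower and upper quartiles were -0.52 and 0.14 for the members, against -0.26 and 0.18 over all genes compared. No member had a log2 fold change above 1, a rule that 3.37% of all genes passed. PLIN1, PLIN4 and AGPAT4 were below -1, which was 8.57% of the 35 members against 4.9% of all genes. The whole counting interval lay below -0.5 for 6 members (PLIN1, PLIN2, PLIN4, CIDEB, GPAM and AGPAT4), which was 17.1% of the 35 against 3.71% of all genes, and above 0.5 for PNPLA2 alone, against 1.51% of all genes. PLIN1 and AGPAT4 had fewer than 30 counts in all: both dropped out, leaving 4 genes, with at least 50 counts required or with the trend over expression level removed, and AGPAT4, whose interval reached -0.50, was also lost with TMM or total-count scaling. Intervals lay above 0 for 9 members, 25.7% of the 35 against 22.5% of all genes, and below 0 for 18 members, 51.4% of the 35 against 25.7% of all genes. Among the 13306 genes that reached 100 normalized counts in either library, the intervals of 33.5% lay below 0 and those of 30.9% above 0.

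**Figure D1:**
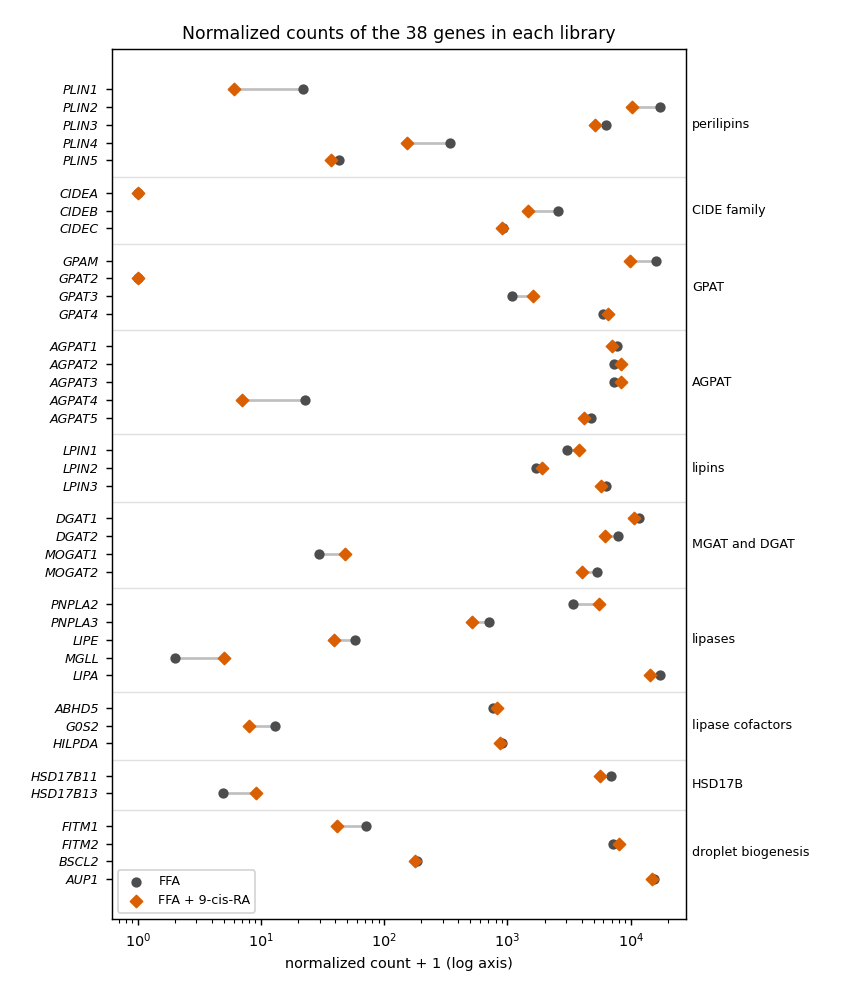
Normalized counts plus 1 (log axis) of the 38 genes, grouped by role, in the FFA library (gray circles) and the FFA + 9-cis-RA library (orange diamonds), 1 library per group. PLIN2, PLIN4, CIDEB and GPAM sit to the left with 9-cis-RA, PNPLA2 and GPAT3 to the right, and CIDEA and GPAT2 sit at 0 counts in both.

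Of the 5 perilipins, 4 were lower with 9-cis-RA, with intervals below 0, and for PLIN5 no difference was detected. Intervals lay below 0 for 25.7% of all genes and for 33.5% of the well-counted ones. PLIN2, the main coat protein of hepatocyte droplets, lies on chromosome 9 from 19108375 to 19149290. Its counts were 17295 with FFA alone and 10177 with 9-cis-RA added (log2 fold change -0.74, interval -0.77 to -0.70). Its normalized count was lower by 40.0%. Among the 13306 genes that reached 100 normalized counts in either library, 3.43% had a log2 fold change as low as that of PLIN2 or lower. PLIN3, a coat protein that moves from the cytosol onto nascent droplets, had 6332 and 5103 counts and a smaller difference of -0.28 (interval -0.34 to -0.23).

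The other perilipins were scarce in these cells. PLIN4, an unusually long repeat-containing coat protein encoded on chromosome 19 from 4502180 to 4518465, had 345 and 151 counts (log2 fold change -1.16, interval -1.45 to -0.88), so that its normalized count was lower by 55.4%. PLIN1, the perilipin of adipocytes, had 21 and 5 counts, with a log2 fold change of -1.85 and a wide interval from -3.81 to -0.60. PLIN5, which ties droplets to mitochondria in oxidative tissues, had 42 and 36 counts, with an interval from -0.88 to 0.48. Another gene on the same strand, with 11 and 0 counts, overlapped 21.7% of the exonic bases of PLIN5, where reads were not counted.

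Per exon length, PLIN2 and PLIN3 made up nearly the whole perilipin pool. The summed level of the 5 genes was 95.9 FPKM with FFA alone and 68.1 FPKM with 9-cis-RA added. The share of PLIN2 in this sum was 59.2% with FFA alone and 51.7% with 9-cis-RA, and that of PLIN3 was 39.6% and 47.5%. The level of PLIN2 was thus 1.49 times that of PLIN3 without the agonist and 1.09 times with it.

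Of the CIDE family, which promotes droplet fusion and lipoprotein lipidation, CIDEB was lower with 9-cis-RA and for CIDEC no difference was detected. CIDEB, the CIDE gene of hepatocytes, was counted 2590 times with FFA alone and 1442 times with 9-cis-RA added (log2 fold change -0.82, interval -0.91 to -0.72). Its gene spans bases 24305096 to 24311430 of chromosome 14. All of its exonic bases are overlapped by NOP9 and LTB4R2 on the opposite strand. The counting used strand, and the log2 fold changes of those genes were -0.025 for NOP9 and 0.23 for LTB4R2. CIDEC had 936 and 898 counts (log2 fold change -0.032, interval -0.17 to 0.10, a sign that turned with total-count scaling), and at 7.99 and 8.08 FPKM its level per length was below that of CIDEB without 9-cis-RA and close to it with 9-cis-RA (13.3 and 7.82 FPKM). CIDEA had 0 counts in both libraries, which allows a level of up to 0.0273 FPKM in the FFA library.

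At the entry of the pathway the GPATs differed in direction. GPAM, the mitochondrial GPAT on chromosome 10 from 112149865 to 112215377, had 16292 and 9847 counts (log2 fold change -0.70, interval -0.74 to -0.66). GPAT3, an endoplasmic reticulum enzyme on chromosome 4 from 83535914 to 83605875, went the other way with 1092 and 1589 counts (log2 fold change 0.57, interval 0.46 to 0.68). GPAT4, its closest relative, had 6047 and 6445 counts (log2 fold change 0.12, interval 0.069 to 0.17).

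The makeup of the GPAT pool differed accordingly. GPAM provided 61.0% of the summed FPKM of the family with FFA alone and 44.5% with 9-cis-RA added, GPAT3 provided 11.1% and 19.5%, and GPAT4 28.0% and 36.0%. The level of GPAM was 5.51 times that of GPAT3 without 9-cis-RA and 2.29 times with it. GPAT2 had 0 counts in both libraries. It has near-identical copies elsewhere in the genome, and reads that map to several places were not counted, so this value is uncertain.

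**Figure D2:**
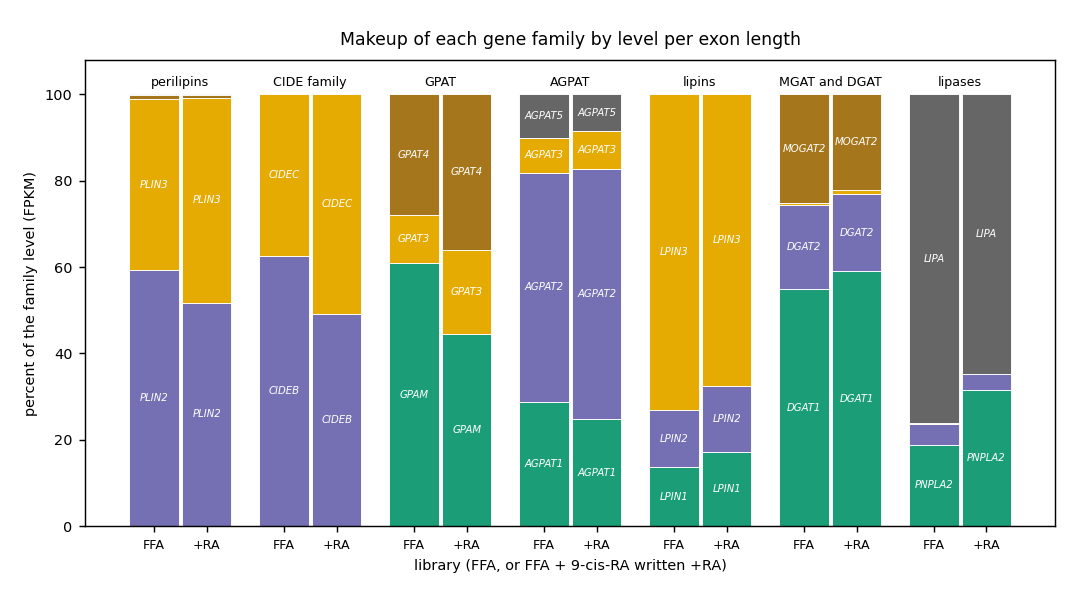
Share of each gene in the summed level per exon length (FPKM, percent, axis from 0) of 7 families, with the FFA library on the left of each pair and the FFA + 9-cis-RA library (+RA) on the right. GPAM takes 61.0% of the GPAT bar without 9-cis-RA and 44.5% with it, and PNPLA2 takes 18.9% and 31.6% of the lipase bar.

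Among the AGPATs, AGPAT2 and AGPAT3 were slightly higher with 9-cis-RA, AGPAT1 and AGPAT5 slightly lower, and AGPAT4, with few counts, lower by more. AGPAT2, the isoform whose loss causes generalized lipodystrophy, was the most abundant of the 5 per length at 66.2 FPKM with FFA alone and 78.5 FPKM with 9-cis-RA added. It had 7380 and 8297 counts (log2 fold change 0.20, interval 0.15 to 0.24), and AGPAT3 was almost the same at 0.19 (7427 and 8327 counts, interval 0.15 to 0.24). AGPAT1 was lower at -0.15 (7830 and 6928 counts, interval -0.20 to -0.10), as was AGPAT5 at -0.19 (4785 and 4129 counts, interval -0.25 to -0.12). AGPAT4 had 22 and 6 counts (log2 fold change -1.69, interval -3.44 to -0.50), and contributed 0.0204% of the family level in the FFA library.

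The lipins, phosphatidic acid phosphatases that yield diacylglycerol, likewise split. LPIN1, which also acts as a transcriptional coactivator, had 3092 and 3776 counts (log2 fold change 0.32, interval 0.25 to 0.38). LPIN2 was higher by less, at 0.17 (1726 and 1903 counts, interval 0.074 to 0.26). LPIN3 was lower at -0.14 (6370 and 5671 counts, interval -0.19 to -0.088) and still made up 73.1% of the summed lipin FPKM with FFA alone and 67.5% with 9-cis-RA added.

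Of the monoacylglycerol and diacylglycerol acyltransferases, DGAT1, DGAT2 and MOGAT2 were lower with 9-cis-RA and MOGAT1, which had few counts, was higher. DGAT2, the DGAT that favours newly made fatty acids, had 7884 and 6080 counts (log2 fold change -0.35, interval -0.40 to -0.30). DGAT1 had 11675 and 10584 counts (log2 fold change -0.11, interval -0.15 to -0.076). Per length DGAT1 was the more abundant, at 46.5 and 44.4 FPKM against 16.4 and 13.3 FPKM for DGAT2. MOGAT2, a monoacylglycerol acyltransferase known from the intestine, had 5344 and 3973 counts (log2 fold change -0.40, interval -0.46 to -0.34). MOGAT1 had 29 and 47 counts, and its value of 0.70 had an interval from 0.026 to 1.44.

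On the side of hydrolysis, PNPLA2 stood out. It lies on chromosome 11 from 818914 to 825573 and was counted 3411 times with FFA alone and 5478 times with 9-cis-RA added (log2 fold change 0.71, interval 0.65 to 0.77). Its normalized count was 63.7% higher with 9-cis-RA, and 1.32% of the 13306 well-counted genes had a log2 fold change as high or higher. At 14.6 and 24.8 FPKM, PNPLA2 ranked 14 among the 38 genes with FFA alone and 10 with 9-cis-RA. The level of PLIN2, the coat protein, was 3.88 times that of PNPLA2 with FFA alone and 1.42 times with 9-cis-RA added.

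PNPLA3 and LIPA were lower with 9-cis-RA, and LIPE and MGLL were too scarce for a direction. PNPLA3, a droplet-bound relative of PNPLA2 known for its link to fatty liver, had 716 and 509 counts (log2 fold change -0.46, interval -0.63 to -0.30). LIPA, the lysosomal acid lipase, was the most abundant lipase per length at 58.9 and 50.7 FPKM and had 17525 and 14297 counts (log2 fold change -0.27, interval -0.30 to -0.23). LIPE, which encodes hormone-sensitive lipase, had 58 and 38 counts, with an interval from -1.21 to 0.032. MGLL, which encodes monoacylglycerol lipase, had 1 and 4 counts and was too low to compare, with an interval from -1.31 to 7.65.

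No difference was detected in the regulators of PNPLA2. ABHD5, its coactivator, had 766 and 811 counts (log2 fold change 0.11, interval -0.034 to 0.25), and with total-count scaling its interval lay above 0. HILPDA, an inhibitor induced by hypoxia and fatty acids, had 910 and 860 counts (log2 fold change -0.054, interval -0.19 to 0.082). G0S2, the other inhibitor, had 12 and 7 counts, and its interval of -2.33 to 0.71 included differences in either direction.

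**Figure D3:**
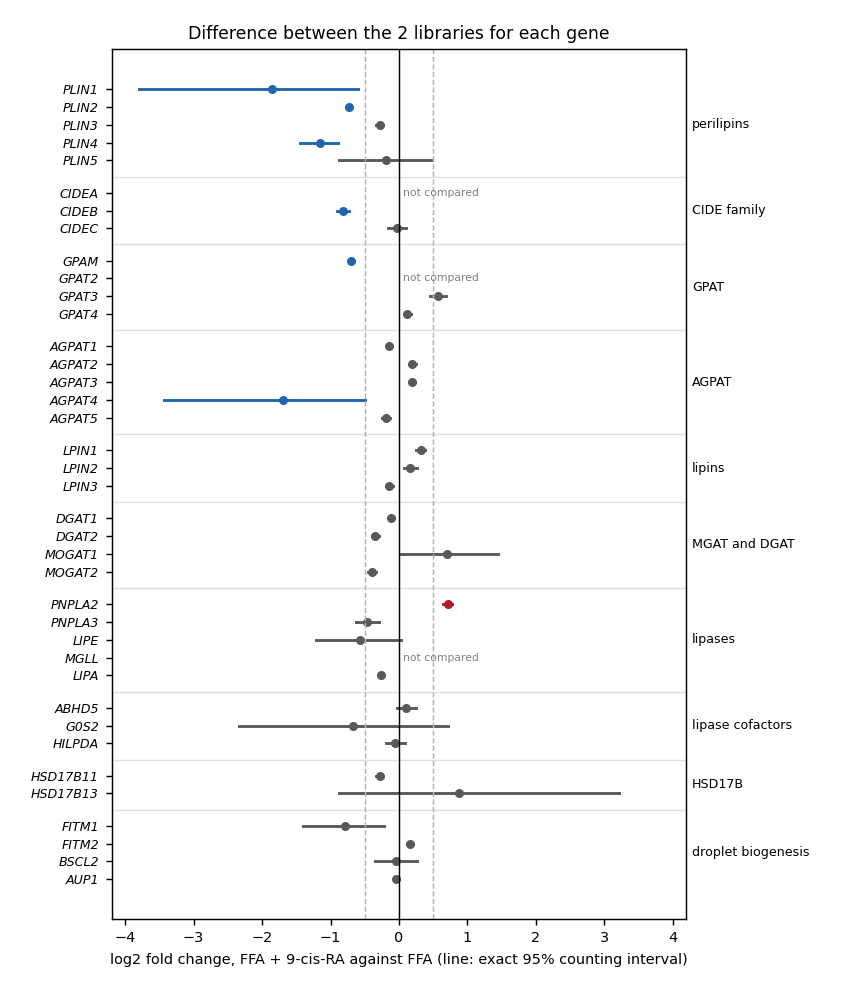
Log2 fold change of each gene, FFA + 9-cis-RA against FFA (points), with its exact 95% counting interval (lines) and dashed guides at -0.5 and 0.5. The 6 genes in blue have the whole interval below -0.5, PNPLA2 in red has it above 0.5 (0.65 to 0.77), and genes with wide lines have few counts.

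Of the genes that form droplets at the endoplasmic reticulum, AUP1, FITM2 and BSCL2 were nearly level between the libraries. AUP1, a droplet protein that recruits ubiquitin-conjugating enzymes, was the most abundant of the 38 genes per length at 104.0 and 104.6 FPKM. With 15525 and 14802 counts, AUP1 was at -0.041 in log2 fold change, a sign that turned with total-count scaling (0.0080) and with the length trend removed (0.036). FITM2, which binds and helps to bud triglyceride, had 7190 and 7890 counts (log2 fold change 0.16, interval 0.12 to 0.21). FITM1, its relative of skeletal muscle, had 71 and 40 counts (log2 fold change -0.79, interval -1.40 to -0.22), and 40.9% of its exonic bases are shared with another gene on the same strand.

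BSCL2, which encodes the droplet assembly protein seipin, had 184 and 175 counts, with an interval from -0.35 to 0.26. A readthrough gene, HNRNPUL2-BSCL2, covers 40.6% of the exonic bases of BSCL2 in the same direction, and reads on shared bases were left out, so its level of 0.763 and 0.765 FPKM understates the locus. HSD17B11, a droplet-bound dehydrogenase, had 6918 and 5577 counts (log2 fold change -0.28, interval -0.33 to -0.23). Its neighbour HSD17B13, a droplet protein of hepatocytes, had 4 and 8 counts and an interval from -0.87 to 3.21. In all, 9 of the 38 genes shared exonic bases with another gene on the same strand, 5 of them over 10% of their length.

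**Figure D4:**
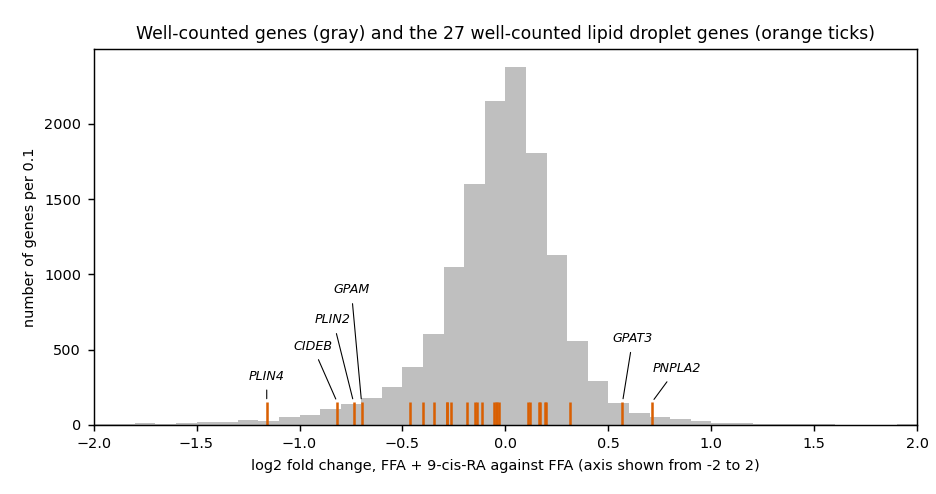
Number of genes per 0.1 of log2 fold change (gray, the 13306 genes that reached 100 normalized counts in either library, axis shown from -2 to 2), with orange ticks for the 27 members that met the same minimum. PLIN4 at -1.16, CIDEB at -0.82, PLIN2 at -0.74 and GPAM at -0.70 lie in the lower tail, and GPAT3 at 0.57 and PNPLA2 at 0.71 in the upper tail.

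Ordered by level per length, the genes spanned from 104.0 FPKM for AUP1 to 0 in the FFA library. AGPAT2, LIPA, PLIN2 and HSD17B11 followed AUP1 in the FFA library at 66.2, 58.9, 56.7 and 48.8 FPKM. PLIN2 stood 4 in that order without 9-cis-RA and 6 with it, where it fell between HSD17B11 at 41.5 FPKM and AGPAT1 at 33.4 FPKM. In each library 17 genes exceeded 10 FPKM and 13 were below 1 FPKM. Those below 1 FPKM were PLIN1, PLIN4, PLIN5, CIDEA, GPAT2, AGPAT4, MOGAT1, LIPE, MGLL, G0S2, HSD17B13, FITM1 and BSCL2. FPKM values are scaled by total counts, which sets the log2 difference of every gene 0.049 higher than the size factors do.

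Lists of related genes outside the 38 had medians near 0. Over all genes compared, intervals lay above 0 for 22.5% and below 0 for 25.7%. Among the 13306 well-counted genes these shares were 30.9% and 33.5%. The whole interval lay above 0.5 for 1.51% of all genes and below -0.5 for 3.71%. In a list of 27 other neutral lipid hydrolases, 22 were compared, with intervals above 0 for 9 and below 0 for 7 and a median log2 fold change of 0.018, and the whole interval lay below -0.5 for PNPLA7 alone, a lysophospholipase that had 684 and 320 counts (log2 fold change -1.07). Among 38 other droplet proteins and biogenesis factors, 37 were compared, with intervals above 0 for 15 and below 0 for 13 and a median of 0.029. ACSL3, the acyl-CoA synthetase of growing droplets, had 5459 and 9668 counts (0.85), DHRS3, a retinaldehyde reductase found on droplets, had a value of 0.86, and HSD17B7, a sterol synthesis enzyme, had 1178 and 655 counts (-0.82). Of 36 enzymes that make or use phosphatidic acid and diacylglycerol, 30 were compared, with intervals above 0 for 8 and below 0 for 12 and a median of -0.046, and GK, glycerol kinase, had 3945 and 2191 counts (-0.82).

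Transcriptional regulators of lipid genes were taken from a list of 33, of which 32 were compared. Intervals lay above 0 for 15 and below 0 for 13, against 22.5% and 25.7% of all genes compared. Their median was 0.028. SREBF1, which encodes the lipogenic factor SREBP-1, had 3282 and 9232 counts (log2 fold change 1.52). NR0B2, the bile acid sensitive repressor SHP, had 5085 and 9244 counts (0.89), and NR1H4, the bile acid receptor FXR, had 2305 and 1260 counts (-0.84).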

How the data were processed

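RNA was poly(A)-selected. The authors deposited fragment counts per gene, not normalized, made with featureCounts version 2.0.1 on the reverse strand (strand setting 2) over exons, from pairs with both ends mapped and within the default fragment length. Fragments overlapping several genes or mapping to several places were left out. The build was GRCh38 in the submitters' processing notes; the aligner and annotation release are not given in the sources used here. The authors' notes name DESeq2, whose test needs replicates.

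Counts were divided by DESeq2 version 1.42.0 size factors (R version 4.3.3), and log2 fold changes took a pseudocount of 1 for genes whose counts summed to 10 or more. Exact 95% intervals came from the Clopper-Pearson interval of each gene's share of counts, and limits for 0 counts were set at 3 counts per library; both cover counting error only. Alternatives were TMM (edgeR version 4.0.16), total counts, pseudocounts of 0.1 and 5, other count minimums, and loess trends (span 0.3). The code was tested on simulated data. Python 3.11.15, scipy 1.17.1, pandas 2.3.3, statsmodels 0.14.6 and matplotlib 3.10.9 were used. The 60623 entries were matched to symbols (42005 had one), and promoters came from RefSeq.

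The 38 genes and all lists were chosen with earlier results of these data known. All 38 are named; of the other lists, those with a normalized count of at least 100 and a whole interval past 0.5, at most 3 in each direction, and CYP26A1, RARB and DHRS3, are named, with cell type markers at 0 as a check. Both libraries were treated as 1 batch, because the sample labels used here name none.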

Additional observations from a re-analysis of the deposited data

How the results depend on the processing

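Of 276 values of single genes under another setting, 7 changed sign. AUP1, whose interval lay below 0, was at 0.0080 with total counts and 0.036 with the length trend removed. The other 5 were of genes whose interval included 0: CIDEC at 0.017 with total counts and 0.061 with the length trend removed, HILPDA at 0.035 with the length trend removed, and BSCL2 at 0.0044 with total counts and 0.022 with the expression trend removed. The median over the members was -0.10 with total counts. The number of members with the whole interval above 0.5 was 2 with total counts, when GPAT3 joined PNPLA2. The number above 1 was 1 with a pseudocount of 0.1 and with the expression trend removed (HSD17B13), and 1 without a count minimum (MGLL). With the expression trend removed, PLIN1 and AGPAT4 no longer had the whole interval below -0.5, which left 4 members. The number below -1 was 1 with at least 50 counts (PLIN4), which left 31 members. PLIN2, GPAM, CIDEB and PLIN4 kept the whole interval below -0.5, and PNPLA2 kept it above 0.5, under all 8 settings. Of protein-coding genes, 1.97% were above 1 and 3.25% below -1, and of genes that reached 100 normalized counts, 0.481% and 1.58%. As TPM, levels were 2.90 times the FPKM in the FFA library and 2.98 times in the FFA + 9-cis-RA library. Depth limits PLIN1, AGPAT4, MOGAT1, G0S2, HSD17B13 and MGLL. With 1 library per group, a difference between cultures cannot be told apart from one between treatments.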

Other observations

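Some of the 38 genes lie beside each other. PLIN4 and PLIN5 are 4065 bases apart on chromosome 19, on the same strand, with log2 fold changes of -1.16 and -0.19, the latter with an interval that included 0. DGAT2 and MOGAT2, on the same strand of chromosome 11 and 26553 bases apart, were at -0.35 and -0.40. HSD17B11 and HSD17B13 are 13628 bases apart on chromosome 4, where the former had 6918 and 5577 counts and the latter 4 and 8.

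Among genes that overlap members on the opposite strand, IFIT2, an interferon response gene whose exons overlap LIPA, had 457 and 270 counts (log2 fold change -0.73, interval -0.95 to -0.51). HTRA2, which overlaps AUP1, was at -0.26, and HDGFL2, which overlaps PLIN4, at -0.056 with an interval that included 0 (-0.13 to 0.015). SAMM50, which shares 4.6% of the exonic bases of PNPLA3 on the same strand, had 1836 and 1900 counts and an interval that included 0 (-0.016 to 0.17).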
